A study of Homo sapiens with 3 samples.

Results

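The 7 genes described here are CTGF, CYR61, NOV, WISP1, THBS1, ANKRD1 and AMOTL2, which are matricellular genes and genes that respond to the transcriptional co-activator YAP. They were taken from the array by their names in the scanner files, where CTGF, CYR61, NOV and WISP1 carry older symbols for CCN2, CCN1, CCN3 and CCN4. They were measured by 8 of 58201 transcript probes and are 7 of 43317 gene names, with 2 probes for THBS1 and 1 for each other gene. The set was put together with these data in view, and CTGF, around which it is built, was chosen by its low intensity on the IMQ+X array against the IMQ array, so the values below are descriptions and no test was made on them.

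RNA came from THP-1, an established human monocytic leukemia cell line, which had been turned into macrophages with phorbol ester (PMA) at 100 ng/ml over 24 to 36 h in all 3 conditions. The Ctrl array held RNA of cells without further treatment, and the IMQ array held RNA of cells given imiquimod (IMQ), a toll-like receptor agonist. The IMQ+X array held RNA of cells given DMD, a benzenoid isolated from the fungus Antrodia cinnamomea, ahead of IMQ. The label X was read as DMD because no other compound is named for the series, and the labels give a time of 4 h for all 3 samples and no dose. There was 1 array per condition, all on 1 slide, so no difference below has a replicate check, and whether cultures of one condition would differ by as much cannot be told.

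The CCN proteins and thrombospondin 1 are matricellular proteins, which are secreted into the matrix and act on cells through integrins and other receptors rather than as structural fibers. In the Hippo pathway, the kinases STK3, STK4, LATS1 and LATS2 hold YAP1 and its relative WWTR1 (TAZ) in the cytoplasm. When they are released, YAP1 and WWTR1 enter the nucleus and act with TEAD factors on genes such as CTGF, CYR61, ANKRD1 and AMOTL2. CTGF and CYR61 also respond to serum response factor (SRF) and to other signals, and they are better known from fibroblasts and endothelium than from macrophages.

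The probes decide what each value stands for, so the sequences behind the members with the largest differences are shown. The first 30 bases of the CTGF, ANKRD1 and brighter THBS1 probes and the whole dimmer THBS1 probe are given in the direction of the transcript. In hg19, the build of the array design, the CTGF probe lies at chr6:132270130-132270189 on the minus strand and the ANKRD1 probe at chr10:92672562-92672621 on the minus strand. The THBS1 probes lie on the plus strand at chr15:39888831-39888890 (A_24_P142118) and chr15:39874546-39874605 (A_33_P3415820), 14285 bases apart, and so read separate stretches of the gene.
CTGF probe: tggaactacattagtacacagcaccagaat
ANKRD1 probe: gcaaacgacagactcttaatcagtaaatgt
THBS1 A_24_P142118: aataagctgctctgccccttgtgctcagag
THBS1 A_33_P3415820: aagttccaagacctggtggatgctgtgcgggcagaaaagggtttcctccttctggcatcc
The CYR61 probe lies at chr1:86048953-86049012 on the plus strand and the AMOTL2 probe at chr3:134074742-134074801 on the minus strand. The exon or UTR that each probe falls in was not assigned here.

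TEAD factors bind the letters GGAATG, or CATTCC on the other strand. These letters were searched on both strands in the RefSeq promoters (GRCh38.p14), from 250 bases before to 50 bases after each gene start. Promoters of 4 of the 7 members were matched, namely CTGF, THBS1, ANKRD1 and AMOTL2, with 5 windows between them. Each of the 4 held the motif in at least 1 window. Of 35116 windows of the same length, 14% held it, a share counted per window and not per gene. CTGF, ANKRD1 and AMOTL2 are known TEAD targets, so the motif was likely in advance and nothing is read from this count. Of each window, only the 250 bases before the start are shown, with the motif in capitals. They are those of CTGF (chr6:131951373-131951622, minus strand), ANKRD1 (chr10:90921088-90921337, minus strand), THBS1 (chr15:39580829-39581078, plus strand) and AMOTL2 (chr3:134374448-134374697, minus strand).
CTGF: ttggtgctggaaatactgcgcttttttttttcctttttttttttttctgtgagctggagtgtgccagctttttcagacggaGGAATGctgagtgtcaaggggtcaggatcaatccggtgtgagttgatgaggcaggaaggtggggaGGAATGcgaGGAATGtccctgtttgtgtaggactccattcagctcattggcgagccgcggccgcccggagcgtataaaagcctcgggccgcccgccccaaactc
ANKRD1: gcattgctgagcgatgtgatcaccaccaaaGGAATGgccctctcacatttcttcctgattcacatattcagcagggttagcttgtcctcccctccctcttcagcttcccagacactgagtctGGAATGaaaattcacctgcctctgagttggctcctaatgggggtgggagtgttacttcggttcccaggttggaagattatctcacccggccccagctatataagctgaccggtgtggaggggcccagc
THBS1: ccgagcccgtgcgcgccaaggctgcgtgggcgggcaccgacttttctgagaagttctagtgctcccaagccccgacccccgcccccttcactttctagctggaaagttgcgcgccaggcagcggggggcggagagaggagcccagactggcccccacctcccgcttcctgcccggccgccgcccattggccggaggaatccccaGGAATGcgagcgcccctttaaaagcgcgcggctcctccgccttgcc
AMOTL2: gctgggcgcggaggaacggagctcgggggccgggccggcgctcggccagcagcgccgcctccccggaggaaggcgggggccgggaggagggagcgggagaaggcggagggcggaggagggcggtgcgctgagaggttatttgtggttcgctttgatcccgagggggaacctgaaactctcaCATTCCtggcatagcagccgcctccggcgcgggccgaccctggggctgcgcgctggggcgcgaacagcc
The CTGF window held the motif 3 times, the ANKRD1 window 2 times, and the THBS1 and AMOTL2 windows 1 time each. The other AMOTL2 window in the table held none. The NF-kB motif was found in the CTGF window, where its match overlaps the TEAD match nearest to the start, and in 1 AMOTL2 window, against 11.3% of all promoters. The AP-1 motif TGANTCA was found in ANKRD1 (7.71% of all promoters) and the CArG box of SRF in none of the 4 (1.29% of all promoters). These matches are letters in a window and say nothing of binding in these cells.

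Of all probes, 66.6% to 72.0% were well above background on an array, a mark that the scanner software gives to spots clearly brighter than their surroundings. Values are the intensities that the authors quantile normalized, and differences are of log2 values between single arrays. A difference was counted at 2-fold or more, which is 1 on the log2 scale. The only error that could be measured was that between spots of one array, from 300 probes printed as 10 spots each, and it is given as the SD of a difference. It fell from 0.46 log2 units for a spot between log2 values of 3 and 4 to 0.04 for bright spots, and it holds no spread between cultures. Where another scaling is named, arrays were set level on their 75th percentile, on all 10 spike-in control probes, or on the 8 of them that were bright on every array. On such bulk RNA, fewer cells that express a gene and less RNA per cell cannot be told apart.

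CTGF, a secreted CCN protein known for its part in matrix production, had the widest range of the members. On the Ctrl array its normalized intensity was 20.6, which compares with 877 after IMQ and 138 after IMQ+X. The Ctrl array was thus by far the lowest and the IMQ array the highest, with the IMQ+X array between them. The log2 level rose from 4.37 to 9.78 with IMQ, a difference of 5.41 or 42.5-fold (spot SD 0.28), and only 16 of 41105 compared probes, CTGF included, had a difference as high. The level on the IMQ+X array was 6.37-fold lower than on the IMQ array, a log2 difference of -2.67 (spot SD 0.11), and 7 of 40826 probes, CTGF included, were as low. These ranks belong to the values that chose CTGF and support nothing beyond them. Against Ctrl, the IMQ+X array was still 6.68-fold higher (log2 difference 2.74, spot SD 0.30), so that 50.6% of the log2 rise remained. The CTGF spot was well above background on all 3 arrays and had no outlier mark. On the Ctrl array it was near the lower limit, since the lowest log2 value well above background there was 4.04. With normexp, a background correction that adds an offset and so compresses dim values, the log2 difference between IMQ and Ctrl was 3.41, that between IMQ+X and IMQ -2.17, and that between IMQ+X and Ctrl 1.24.

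**Figure D1:**
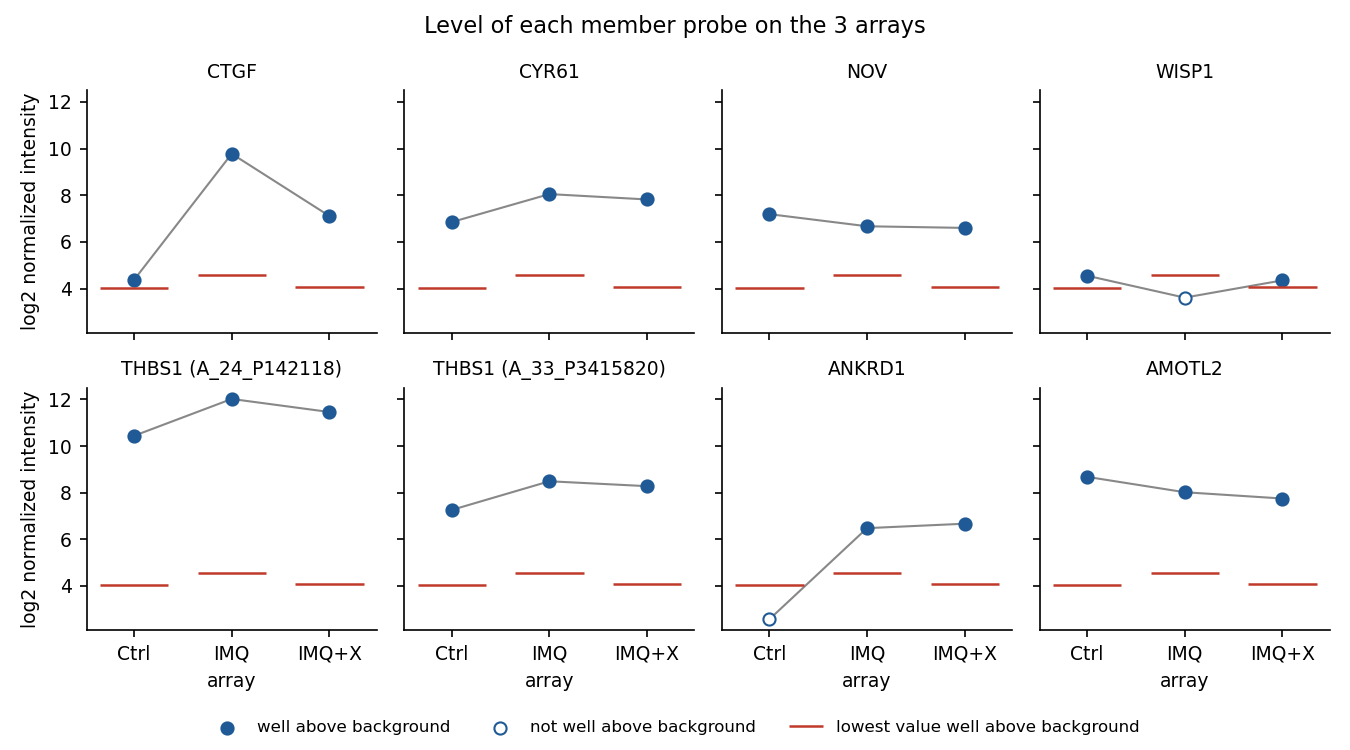
Log2 normalized intensity of each member probe (y axis) on the Ctrl, IMQ and IMQ+X arrays (x axis), 1 point per array, with open points where the probe was not well above background and red lines at the lowest value well above background on that array. CTGF runs from 4.37 to 9.78 and back to 7.11, whereas ANKRD1 is high on both arrays with IMQ and NOV and AMOTL2 are highest on the Ctrl array.

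CYR61, the CCN protein most like CTGF in its known response to YAP, moved in the same order with smaller differences. It read 116 in normalized intensity for Ctrl, 265 for IMQ and 226 for IMQ+X. Both arrays with IMQ were higher than the Ctrl array and lay near each other. The difference between IMQ and Ctrl was 1.19 (2.29-fold, spot SD 0.18) and that between IMQ+X and IMQ was -0.23 (spot SD 0.12), with 80.7% of the log2 rise remaining. The call at 2-fold depended on the scaling, since the first difference was 0.69 without normalization, 0.76 with all spike-in probes and 0.89 with normexp.

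NOV, a CCN protein often found to oppose CTGF in matrix production, was lower with IMQ. The normalized intensity of NOV was 146 in Ctrl, 102 in IMQ and 97.2 in IMQ+X. The arrays with IMQ lay close together below the Ctrl array, with a log2 difference of -0.51 between IMQ and Ctrl (spot SD 0.19) and of -0.07 between IMQ+X and IMQ (spot SD 0.24). The first was -1.09 without normalization, which is past 2-fold, and the sign of the second turned, to 0.20 without normalization, 0.18 with scaling to the 75th percentile and 0.20 with all spike-in probes.

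WISP1, a CCN protein known as a target of WNT signaling, was at the limit of the measurement. The normalized intensities were 23.5 for Ctrl, 12.2 for IMQ and 20.4 for IMQ+X. On the IMQ array it was not well above background, and the lowest value well above background there, a log2 value of 4.57, was higher than the WISP1 value on the Ctrl array, so no fold is given for either comparison with IMQ. The difference between IMQ+X and Ctrl was -0.20 on the log2 scale (spot SD 0.40), within the noise of spots.

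THBS1 encodes thrombospondin 1, a matricellular protein that binds CD36 and CD47 and can activate latent TGF-beta. The brighter probe gave normalized intensities of 1392 for Ctrl, 4140 for IMQ and 2821 for IMQ+X. The other probe gave 154, 359 and 311 in the same order. Both probes put the arrays in the same order as CTGF, with Ctrl lowest and IMQ highest. The log2 difference between IMQ and Ctrl was 1.57 on the brighter probe (2.97-fold, spot SD 0.07) and 1.23 on the other (2.34-fold, spot SD 0.12). The difference between IMQ+X and IMQ was -0.55 on the brighter probe (1.47-fold, spot SD 0.06) and -0.21 on the other (spot SD 0.09), so the probes agree in sign and neither reached 2-fold. Of the log2 rise, 64.8% remained on the brighter probe and 82.9% on the other. Against Ctrl, the IMQ+X array was higher by 1.02 on the log2 scale on the brighter probe (2.03-fold, spot SD 0.07), a value that was 0.52 without normalization and so under 2-fold.

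ANKRD1 encodes a nuclear ankyrin repeat protein that is a common readout of YAP activity and is best known from heart muscle. In Ctrl the normalized intensity was 5.92, in IMQ it was 89 and in IMQ+X it was 102. It was not well above background on the Ctrl array and was well above it on both arrays with IMQ, which lay close together. The IMQ array was therefore at least 5.4-fold and the IMQ+X array at least 6.16-fold higher than the Ctrl array. The difference between IMQ+X and IMQ was 0.19 on the log2 scale (spot SD 0.24), which is within the noise of spots. Under other scalings it was 0.47 without normalization, 0.44 at the 75th percentile, 0.47 with all spike-in probes and 0.69 with the bright ones. Of all probes past 2-fold in that comparison, 86.0% to 96.5% were higher under these scalings. A larger value is thus not particular to ANKRD1. The bounds moved too. For IMQ against Ctrl the log2 bound was 2.43 with the deposited values, 1.83 without normalization, 1.64 with the bright spike-in probes and 0.96, just under 2-fold, with normexp. For IMQ+X against Ctrl it was 2.62 with the deposited values and 1.06 with normexp.

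AMOTL2, an angiomotin-like protein that is induced by YAP and binds it in turn, went the other way from CTGF. AMOTL2 gave a normalized intensity of 409 in Ctrl, 260 in IMQ and 215 in IMQ+X. The Ctrl array was the highest and the IMQ+X array the lowest. The log2 difference was -0.66 between IMQ and Ctrl (1.58-fold, spot SD 0.09), -0.27 between IMQ+X and IMQ (spot SD 0.12) and -0.93 between IMQ+X and Ctrl (1.9-fold, spot SD 0.12). Without normalization the first was -1.14 and the last -1.28, both past 2-fold, and the last was -1.20 with all spike-in probes and -1.24 with the bright ones.

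**Figure D2:**
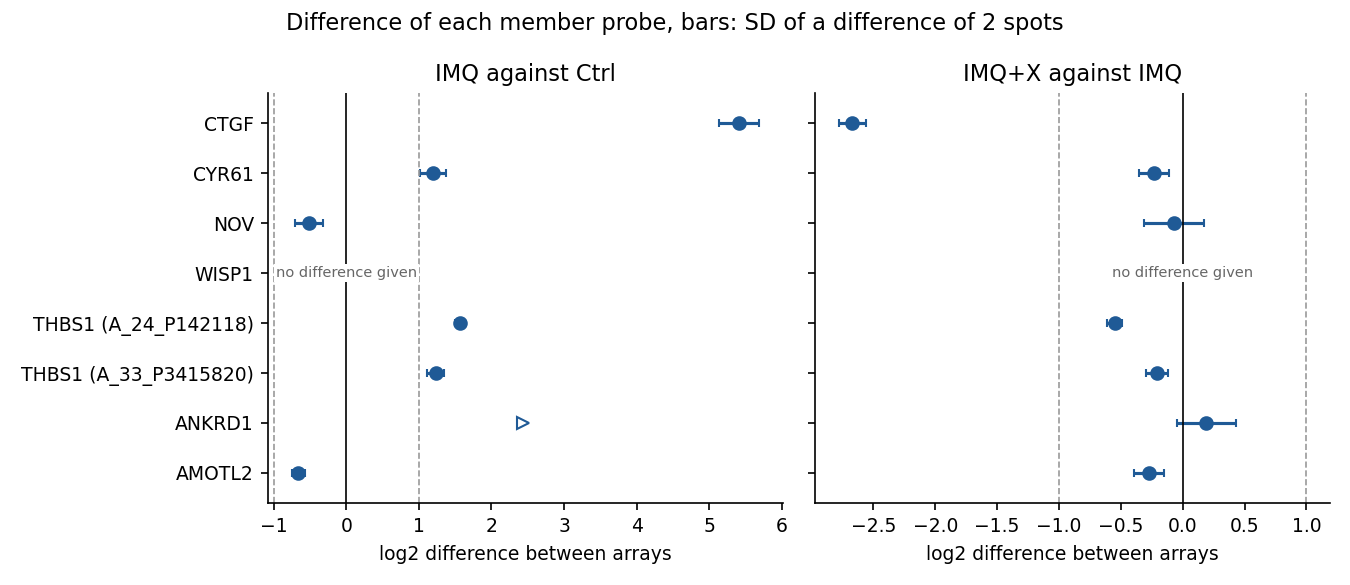
Log2 difference of each member probe (x axis) for IMQ against Ctrl and for IMQ+X against IMQ, where bars are the SD of a difference between spots, the open triangle is a bound and dashed lines mark 2-fold. CTGF stands at 5.41 and -2.67, and in the comparison of IMQ+X with IMQ the other members lie between -0.55 and 0.19.

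Counted over genes, with the brighter probe for THBS1, 4 of 6 compared members (CTGF, CYR61, THBS1 and ANKRD1) were at least 2-fold higher with IMQ than in Ctrl and 0 were lower. The share of all probes past 2-fold in that comparison was 7.79%, made up of 4.31% higher and 3.48% lower. In IMQ+X against IMQ, 1 of 6 members, CTGF, was at least 2-fold lower and 0 were higher, beside 2.4% of all probes, with 1.31% lower and 1.09% higher. In IMQ+X against Ctrl, 3 of 7 members (CTGF, THBS1 and ANKRD1) were higher and 0 lower, beside 8% of all probes, with 3.09% higher and 4.91% lower. Without normalization and with either spike-in scaling, the members counted 3 higher and 2 lower (NOV and AMOTL2) in IMQ against Ctrl, and 2 higher and 1 lower (AMOTL2) in IMQ+X against Ctrl. The comparisons share arrays, and the members were picked with such values known, so nothing is read from these counts.

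**Figure D3:**
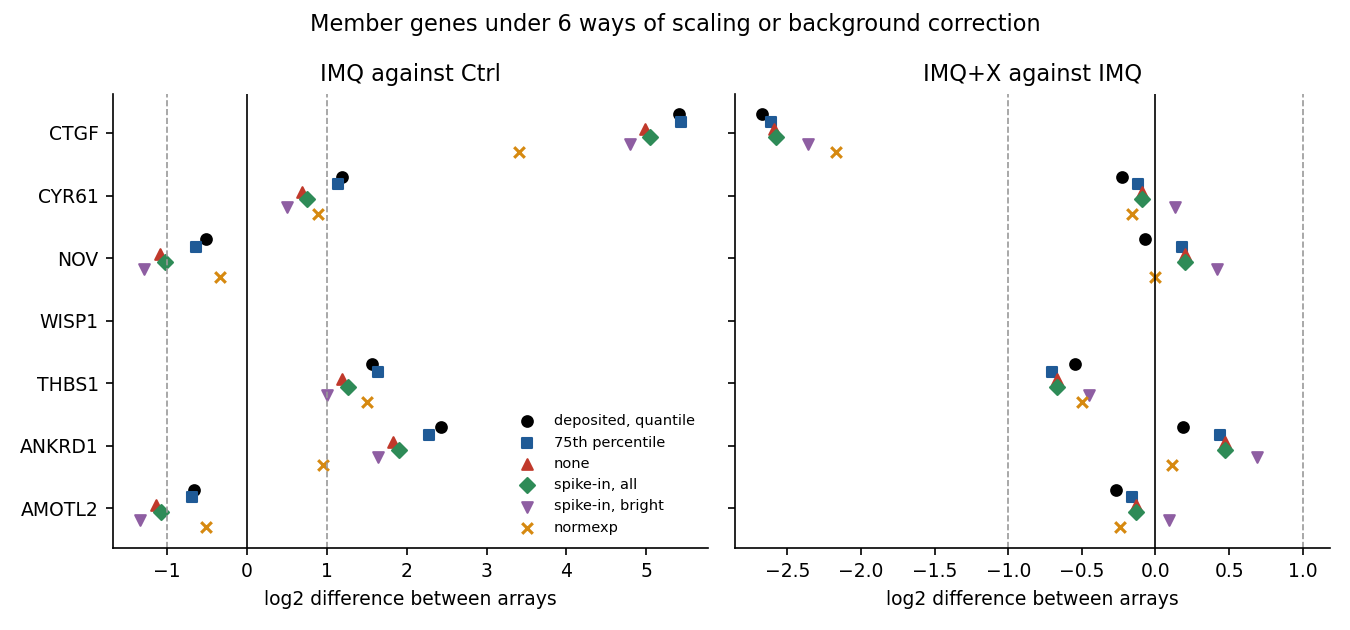
Log2 difference of each member gene (x axis) under 6 ways of scaling the arrays or correcting background, for IMQ against Ctrl and for IMQ+X against IMQ, with dashed lines at 2-fold. CTGF stays past 2-fold under each of them, from 3.41 to 5.43 for IMQ against Ctrl and from -2.67 to -2.17 between IMQ+X and IMQ, while CYR61, NOV, ANKRD1 and AMOTL2 cross a dashed line under some.

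The scaling of the arrays bears on every member, and the IMQ array was the dimmest as scanned, with a median raw intensity of 54.4 against 83.6 for Ctrl and 67.7 for IMQ+X. The median difference of all compared probes between IMQ and Ctrl was -0.01 with the deposited values, -0.51 without normalization, -0.44 with all spike-in probes and -0.70 with the bright ones. Relative to that median, CTGF, CYR61, THBS1 and ANKRD1 were higher with IMQ and NOV and AMOTL2 lower under each of these.

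Other genes that YAP and WWTR1 are known to induce did not share one direction. Of 20 compared target genes, which include CTGF, CYR61, ANKRD1 and AMOTL2, 5 were at least 2-fold higher and 1 was lower with IMQ, beside 4.17% higher and 3.59% lower of 31847 genes. The median log2 difference was 0.23 beside -0.02 over those genes. Of the 5 higher ones, CTGF, CYR61 and ANKRD1 are members picked with these values known. The medians of this list take in these members and AMOTL2 too. They are therefore not medians of the other targets alone, and nothing is read from their distance to those of all genes. The median was -0.16 without normalization and -0.09 with all spike-in probes, where the median of all compared probes was -0.51 and -0.44. The higher ones other than the members were IGFBP3, a binding protein of insulin-like growth factors (log2 difference 1.64), and ASAP1, a regulator of ARF GTPases (1.12). GADD45A, a stress and DNA damage response gene, was lower (-1.07). With IMQ+X against IMQ, 0 were higher and 2 lower, CTGF and TGFB2, a ligand of the TGF-beta family (log2 levels of 6.02 in Ctrl, 5.49 in IMQ and 4.42 in IMQ+X, difference -1.07). The median was -0.12 beside 0.00 over all genes, with 1.18% of them higher and 1.24% lower. With the bright spike-in probes the list median was 0.06, where that of all compared probes was 0.29. Against Ctrl, the IMQ+X array had 3 of 21 targets higher (CTGF, ANKRD1 and IGFBP3, the last by 1.57) and 2 lower, TGFB2 (-1.60) and the kinase gene NUAK2 (-1.20), beside 3.04% higher and 4.82% lower of all genes. Between IMQ+X and IMQ, IGFBP3 differed by -0.07 and ASAP1 by -0.16, so neither reached 2-fold there.

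The RNA of the co-activators themselves moved little. YAP1 had log2 levels of 8.34, 8.45 and 8.31 on the Ctrl, IMQ and IMQ+X arrays, and WWTR1 had 7.34, 6.96 and 7.51. TEAD1, a DNA-binding partner of both, had 11.56, 11.91 and 11.99. These are RNA levels, and where the proteins lie in the cell was not analysed here. Of 25 compared genes of the Hippo pathway and TEAD cofactors, 0 were higher and 3 lower with IMQ, beside 4.17% higher and 3.59% lower of all genes. The median of the 25 was 0.05, and it was -0.35 without normalization, where that of all compared probes was -0.51. The lower ones were AMOT, a relative of AMOTL2 (-1.74), TEAD4 (-1.36) and TEAD2, which was below the limit on the IMQ array (a bound of -1.13). The other AMOT probe that could be compared gave -0.24, so the AMOT probes disagree in size. For IMQ+X against IMQ, 0 of 24 were higher and 1 lower, the TEAD cofactor VGLL2 (a bound of -2.11), beside 1.18% higher and 1.24% lower of all genes. The median was -0.07, and it was 0.14 with the bright spike-in probes, where that of all compared probes was 0.29. Of 26 compared between IMQ+X and Ctrl, 1 was higher and 4 lower, beside 3.04% higher and 4.82% lower of all genes. The kinase gene TAOK1 was higher (1.07), and VGLL2 (a bound of -2.47), AMOT (-2.09), TEAD4 (-1.64) and TEAD2 (-1.44) were lower. The other AMOT probe gave 0.27 in this comparison, so the AMOT probes disagree in sign there and the call rests on 1 probe.

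Among 9 compared matricellular genes outside the members, 0 were higher and 1 lower with IMQ, beside 4.17% higher and 3.59% lower of all genes. The lower gene was THBS2, the closest relative of THBS1, with log2 levels of 8.28, 6.21 and 5.93 on the Ctrl, IMQ and IMQ+X arrays and a difference of -2.07. In IMQ+X against Ctrl it differed by -2.35. The other THBS2 probe gave -1.17 for IMQ against Ctrl and -0.47, under 2-fold, for IMQ+X against Ctrl. Between IMQ+X and IMQ the THBS2 probes differed in sign, at -0.27 and 0.70. THBS1 and THBS2 thus moved in opposite directions with IMQ. None of 10 compared (0 higher and 0 lower) reached 2-fold between IMQ+X and IMQ, beside 1.18% higher and 1.24% lower of all genes.

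Of 13 receptors of CCN proteins and thrombospondin 1, 3 were higher and 0 lower with IMQ, beside 4.17% higher and 3.59% lower of all genes. ITGB3, the integrin chain that pairs with ITGAV, had log2 levels of 7.70, 10.21 and 10.34 on the Ctrl, IMQ and IMQ+X arrays, a difference of 2.51. ITGAV differed by 1.04 and ITGA6, a laminin receptor chain, by 1.02, though the other ITGA6 probe gave 0.48. Against IMQ, the IMQ+X array had 0 of 13 higher or lower at 2-fold, beside 1.18% higher and 1.24% lower of all genes. ITGB3 differed by 0.13 there, so the level on the IMQ+X array was near that on the IMQ array.

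The list of SRF targets holds SRF itself and known targets of it, most of them cytoskeletal genes. Its genes were mostly lower with IMQ, with 2 of 13 above 0, beside 15208 of 31847 genes. At 2-fold, 0 were higher and 3 lower (4.17% and 3.59% of all genes), namely the myosin light chain gene MYL9 (-1.19), CNN1, a calponin (a bound of -1.06), and VCL, which encodes vinculin (-1.01). The median was -0.40, and it was -1.05 without normalization, -0.98 with all spike-in probes and -1.24 with the bright ones. Under these scalings the median of all compared probes was -0.51, -0.44 and -0.70 in the same order. Between IMQ+X and IMQ 0 of 12 reached 2-fold, beside 1.18% higher and 1.24% lower of all genes. The median was -0.16, and it was 0.08 with the bright spike-in probes, where that of all compared probes was 0.29. Against Ctrl, 0 of 13 were higher and 4 lower on the IMQ+X array, beside 3.04% higher and 4.82% lower of all genes. The lower ones were CNN1 (a bound of -1.55), the calponin gene CNN2 (-1.25), VCL (-1.21) and MYL9 (-1.11).

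**Figure D4:**
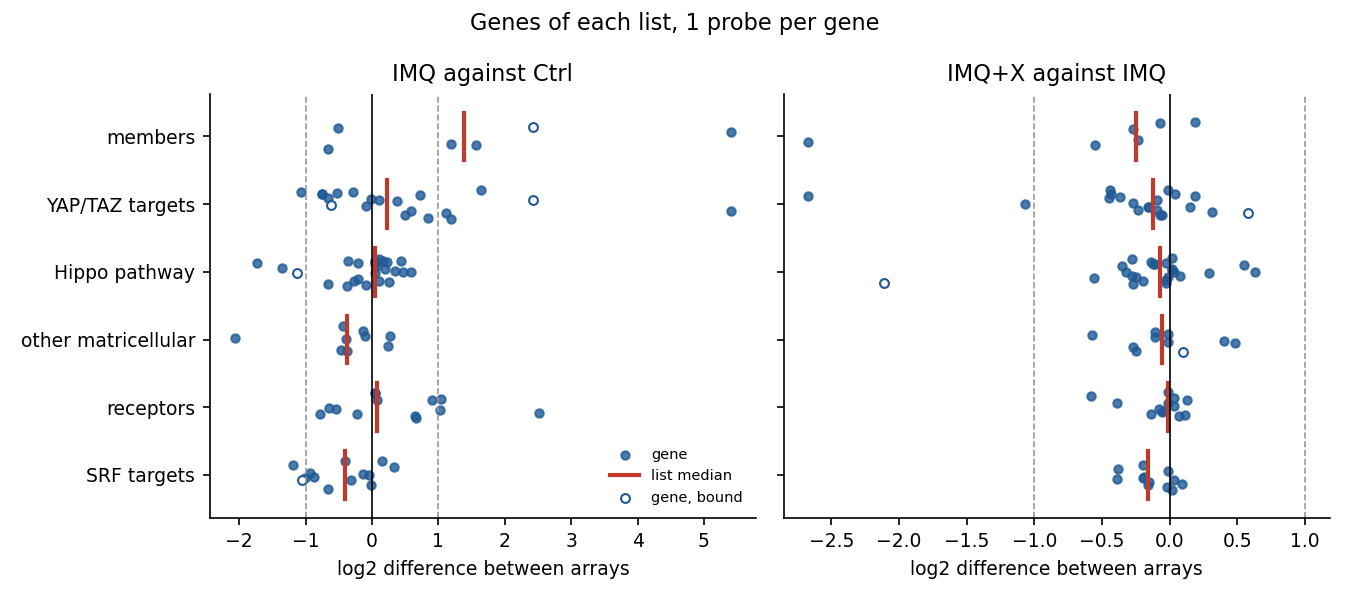
Log2 difference of each gene (points, 1 probe per gene, open where the value is a bound) by list (y axis) for IMQ against Ctrl and for IMQ+X against IMQ, with list medians in red and dashed lines at 2-fold. With IMQ the medians run from -0.40 for the SRF targets to 1.38 for the members, and between IMQ+X and IMQ they lie between -0.25 and -0.01. The members were picked with these values known, so nothing is read from the place of their median. CTGF, CYR61, ANKRD1 and AMOTL2 are also among the YAP/TAZ targets.

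Genes with a pattern like that of CTGF were sought among 29335 genes well above background on all 3 arrays, by the distance between their pairs of log2 differences (IMQ minus Ctrl, and IMQ+X minus IMQ). The nearest was IDO1, the tryptophan-degrading enzyme, with 5.47 and -1.37 at a distance of 1.30. It was followed by CSF3, a granulocyte growth factor (4.35 and -1.35), GRASP, a scaffold protein (6.05 and -1.05), IL23A, a subunit of interleukin 23 (5.89 and -0.92), and PDE4B, a phosphodiesterase (4.72 and -0.92). Their rises with IMQ ran from 4.35 to 6.05 beside 5.41 for CTGF, and their differences between IMQ+X and IMQ were nearer to 0 than that of CTGF. This is a likeness over 3 arrays only.

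Markers were read to check which cells the RNA came from. Each of the 8 macrophage and monocyte markers found by symbol, of 10 listed, passed the background mark on every array, and CD68 and LYZ were not analysed here. Of 8 fibroblast markers, 5 were well above background on each array, while the collagen genes COL1A2 and COL3A1 and the proteoglycan gene LUM were on none. With IMQ, 2 of 5 compared fibroblast markers had a log2 difference above 0. The brightest, the receptor gene PDGFRA, had log2 levels of 9.07, 7.98 and 7.79 on the Ctrl, IMQ and IMQ+X arrays. The summed normalized intensity of the fibroblast markers was 880 for Ctrl, 522 for IMQ and 499 for IMQ+X, and its part in the result was not tested. That of 6 endothelial markers was 6207, 6023 and 4875, although CLDN5, a tight junction gene, was at least 4.01 higher on the log2 scale with IMQ. The sum is mostly that of PECAM1, the brightest of them, with log2 levels of 12.39, 12.26 and 11.94 on the Ctrl, IMQ and IMQ+X arrays. TEK, an endothelial receptor, was not well above background on either array with IMQ. Of 7 epithelial markers, 5 were well above background on the Ctrl and IMQ+X arrays and 4 on the IMQ array, where KRT5 was not, and their summed normalized intensity was 2757 for Ctrl, 2560 for IMQ and 2847 for IMQ+X. The keratin genes KRT8, KRT14, KRT18 and KRT19 were among those present, while EPCAM and CDH1, which define epithelium, were not well above background on any array. The part of these markers in the results was not tested.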

How the data were processed

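RNA of 3 THP-1 samples was labeled with Cy3 and hybridized to 1 one-color Agilent array each, all on 1 slide. The authors deposited the scanner output (Feature Extraction 10.5.1.1, per the file headers) with a background-corrected intensity per spot, and a table with the raw intensity and the quantile-normalized intensity of each probe. Samples were grouped by their titles.

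The deposited normalized intensity was converted to log2, and differences were taken between single arrays. Comparisons took in probes that the scanner marked well above background on the brighter array, and a dim value was raised to the lowest value well above background on its array, which gives a bound. For genes with several probes, that with the highest mean log2 value stood for the gene in counts. With a single array for each condition no p-value can be given, and this number limits the precision. Spot noise came from 300 probes with 10 spots each. The members and gene lists were chosen with earlier results of these data known. Named genes were the members, list genes past 2-fold in a comparison, the 5 genes nearest to CTGF, and markers not well above background on an array. YAP1, WWTR1, TEAD1, PECAM1 and the keratin genes other than KRT5 were named outside this rule, for their role or brightness and after their values were seen. The steps that take differences and call them at 2-fold were tested on simulated data, with changes only in probes well above background. The other steps were not tested in this way.

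Alternatives were other scalings between arrays, a repeat of the quantile normalization, normexp with an offset of 50, no lower limit for dim probes and other thresholds. For THBS1, the probe with the highest mean linear intensity, which was the same probe, and the mean of both probes were also used. Scaling to the 8 of 10 spike-in probes that were bright on every array was chosen after seeing the data. The software was limma 3.58.1 under R 4.3.3, and pandas 2.3.3, numpy 2.4.6 and matplotlib 3.10.9 under Python 3.11.15.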

Additional observations from a re-analysis of the deposited data

How the results depend on the processing

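CTGF kept its direction and stayed past 2-fold under every alternative run. Its log2 difference between IMQ and Ctrl was 4.98 without normalization, 5.05 with all spike-in probes, 4.79 with the bright spike-in probes and 3.41 with normexp. Between IMQ+X and IMQ it was -2.36 with the bright spike-in probes and -2.17 with normexp, and between IMQ+X and Ctrl it was 2.39 without normalization, 2.43 with the bright spike-in probes and 1.24 with normexp. Of 118 values of the other members, 111 kept their sign. The 118 include repeats of the deposited scaling and runs without a lower limit, which cannot change members bright on both arrays. The count is therefore no measure of how firm the signs are. The sign turned for CYR61 (0.13) and AMOTL2 (0.09) between IMQ+X and IMQ with the bright spike-in probes, and for NOV in that comparison, up to 0.42.

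The members past 2-fold between IMQ and Ctrl were 2 with normexp and 2 at 4-fold, against 4, and those between IMQ+X and Ctrl were 5 at 1.5-fold, against 3. Between IMQ and Ctrl, probes past 2-fold were 3202 (55.3% of them higher), against 7398 without normalization (9.9% higher), 6343 with all spike-in probes (12.7%), 11361 with the bright ones (4.9%) and 1443 with normexp, with 8940 at 1.5-fold and 501 at 4-fold. Between IMQ+X and IMQ, they were 978 (45.5% higher), against 1913 without normalization (87.9%), 1766 at the 75th percentile (86.0%), 1930 with all spike-in probes (88.2%), 3730 with the bright ones (96.5%), 60 with normexp, 1984 without a lower limit (62.4%), 591 when bright on both arrays, 4988 at 1.5-fold and 46 at 4-fold. Between IMQ+X and Ctrl, they were 3493 (38.6% higher), against 5182 without normalization (13.0%), 4606 with all spike-in probes (16.8%), 4886 with the bright ones (14.8%), 1629 with normexp, 9476 at 1.5-fold and 547 at 4-fold. No paired analysis was possible because each condition had 1 array. Signal near background limits CTGF and ANKRD1 on the Ctrl array and WISP1 on all 3.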
